A study of Mus musculus with 12 samples.

Results

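The genes described here encode the proteasome, the complexes that open or block it, and the chaperones that put it together. They were chosen by name, as the protein-coding mouse genes whose symbol starts with *Psma*, *Psmb*, *Psmc*, *Psmd*, *Psme*, *Psmf* or *Psmg* followed by a digit, and 50 of the 27179 genes counted met this rule. Of these 50 genes, 14 encode the constitutive subunits of the 20S core, 17 the subunits of the 19S regulatory particle, 5 the interferon-inducible subunits and activators, 3 other regulators, 7 assembly chaperones and 2 tissue-specific core subunits. The remaining 2, *Psmc3ip* and *Psme3ip1*, are named after a proteasome protein that their product binds and were kept apart as matched by name.

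RNA-seq read counts were available for 12 tibialis anterior (TA) muscles of 6 wild-type male C57BL/6N mice, obtained at 6 to 8 weeks of age. The TA of 1 leg of each mouse was transfected with the empty plasmid pcDNA3 (Control, 6 muscles), and the contralateral TA with a plasmid from which the CMV promoter drives the human lncRNA *FRAIL1* (FRAIL1, 6 muscles). Each muscle received 10 μg of plasmid and was collected at day 7, and both legs had been treated with hyaluronidase and electroporated, so both groups share these injuries. The *FRAIL1* sequence is not conserved in mice, so the muscles model forced expression of a foreign transcript, in those fibers that took up plasmid. The human transcript is not among the mouse genes counted, and its level was not checked here. Poly(A) RNA came from whole muscle, in which fewer cells of a type and less RNA per cell cannot be told apart.

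The proteasome is the main protease of the cytosol and nucleus. Its 20S core is a barrel of outer alpha rings, which gate the entry, and inner beta rings, in which *Psmb6*, *Psmb7* and *Psmb5* encode the caspase-like, trypsin-like and chymotrypsin-like sites. The 19S particle binds ubiquitin-tagged proteins, unfolds them with a ring of ATPases (*Psmc1* to *Psmc6*) and feeds them into the core. Interferon induces replacement catalytic subunits (*Psmb9*, *Psmb10* and *Psmb8*) and the activator PA28 (*Psme1*, *Psme2*), which favor peptides for antigen presentation. In skeletal muscle, faster breakdown of myofibrillar protein through ubiquitin and the proteasome is a known part of atrophy. When proteasomes are inhibited, the transcription factor NFE2L1 raises proteasome genes together through antioxidant response elements.

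Among the 48 proteasome genes tested, *Psmb5* and *Psmd5* passed the threshold of 0.05 on adjusted p, both with higher levels in FRAIL1 muscles. This share, 4.17%, was not above the 6.28% of all genes tested. Their upstream sequences are given here because these genes passed. That of *Psmd9* is given because it encodes a chaperone of the same assembly step as *Psmd5* and did not pass. The sequences were taken from RefSeq promoters of GRCm38.p6 and reach up to 250 bases upstream, without bases annotated as exon. Capitals mark TGACNNNGC, the core of an antioxidant response element. The strand is that of the gene.
*Psmb5*, chr14:54618023-54618245, minus strand: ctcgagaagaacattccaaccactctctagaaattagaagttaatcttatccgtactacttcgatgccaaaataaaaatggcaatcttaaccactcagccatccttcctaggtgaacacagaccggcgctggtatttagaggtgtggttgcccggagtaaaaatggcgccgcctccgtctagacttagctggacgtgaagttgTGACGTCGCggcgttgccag
*Psmd5*, chr2:34870966-34871107, minus strand: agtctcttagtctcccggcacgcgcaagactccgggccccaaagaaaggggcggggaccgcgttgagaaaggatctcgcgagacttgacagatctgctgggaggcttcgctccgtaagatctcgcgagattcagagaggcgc
*Psmd9*, chr5:123227940-123228189, plus strand: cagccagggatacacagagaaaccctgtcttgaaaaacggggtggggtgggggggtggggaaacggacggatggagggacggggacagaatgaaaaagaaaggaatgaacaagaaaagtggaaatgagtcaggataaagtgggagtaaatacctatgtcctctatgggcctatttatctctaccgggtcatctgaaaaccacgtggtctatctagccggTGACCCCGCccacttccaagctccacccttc

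The core motif starts 47 bases before the RefSeq start of *Psmb5* and 31 bases before that of *Psmd9*, and it was not found in the window of *Psmd5*. Of the 42 proteasome genes with a promoter entry, 5 (11.9%) had the motif on either strand within 250 bases upstream, namely *Psmb5*, *Psmb6*, *Psmc6*, *Psmd9* and *Psmd12*. The share was 11.5% of 27025 genes in the RefSeq table and 13.9% of the 11778 genes tested that it holds. A match is a string of letters, and binding was not measured.

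Total counts ranged from 45018389 to 59309210 in Control and from 44848322 to 60527385 in FRAIL1 muscles. FRAIL1 muscle 5 stood apart from the others, at 59.5 on the first principal component (32.4% of variance), against 25.8 or less in the other FRAIL1 muscles and -11.0 or less in Control muscles. It also had the largest scaling factor, 1.19, by TMM (trimmed mean of M-values), which corrects library sizes for composition. Levels are given as CPM, the counts of a gene relative to the scaled library size. The results that follow are therefore also given without this muscle where they turn on it.

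In edgeR's quasi-likelihood fit over 15502 genes, 6.28% passed at 0.05 after Benjamini-Hochberg adjustment, and of the 48 proteasome genes 2 did (4.17%). This fit took the muscles as independent, since the labels do not say which muscles share a mouse. In the upward direction the shares were 4.43% of all genes and 4.17% of proteasome genes. In the downward direction they were 1.85% of all genes and 0 of 48 proteasome genes. DESeq2 called 4 proteasome genes (*Psmb5*, *Psmd5*, *Psmd13* and *Psme4*) and 14.5% of all genes. With a single muscle left out, edgeR called 2 to 4 proteasome genes and between 364 (without FRAIL1 muscle 1) and 2110 (without FRAIL1 muscle 3) of all genes, against 974 with all muscles. Unadjusted p-values under 0.05 were found for 7 of 48 proteasome genes (14.6%), against 27.7% of all genes. Groups that did not overlap were found for 4.88% of all genes. The 6 FRAIL1 values all lay above the 6 Control values for 4 proteasome genes (8.33%), against 3.12% of all genes, and for none did they all lie below, against 1.77%. Those 4 genes were *Psmb5*, *Psmd5*, *Psmd13* and *Psmc3*. Proteasome genes varied less than most, with a median coefficient of variation of 5.09% in Control muscles, against 11.9% over all genes. The median SE of their log2 fold changes was 0.057, against 0.114. The shares therefore compare genes of unlike precision.

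**Figure D1:**
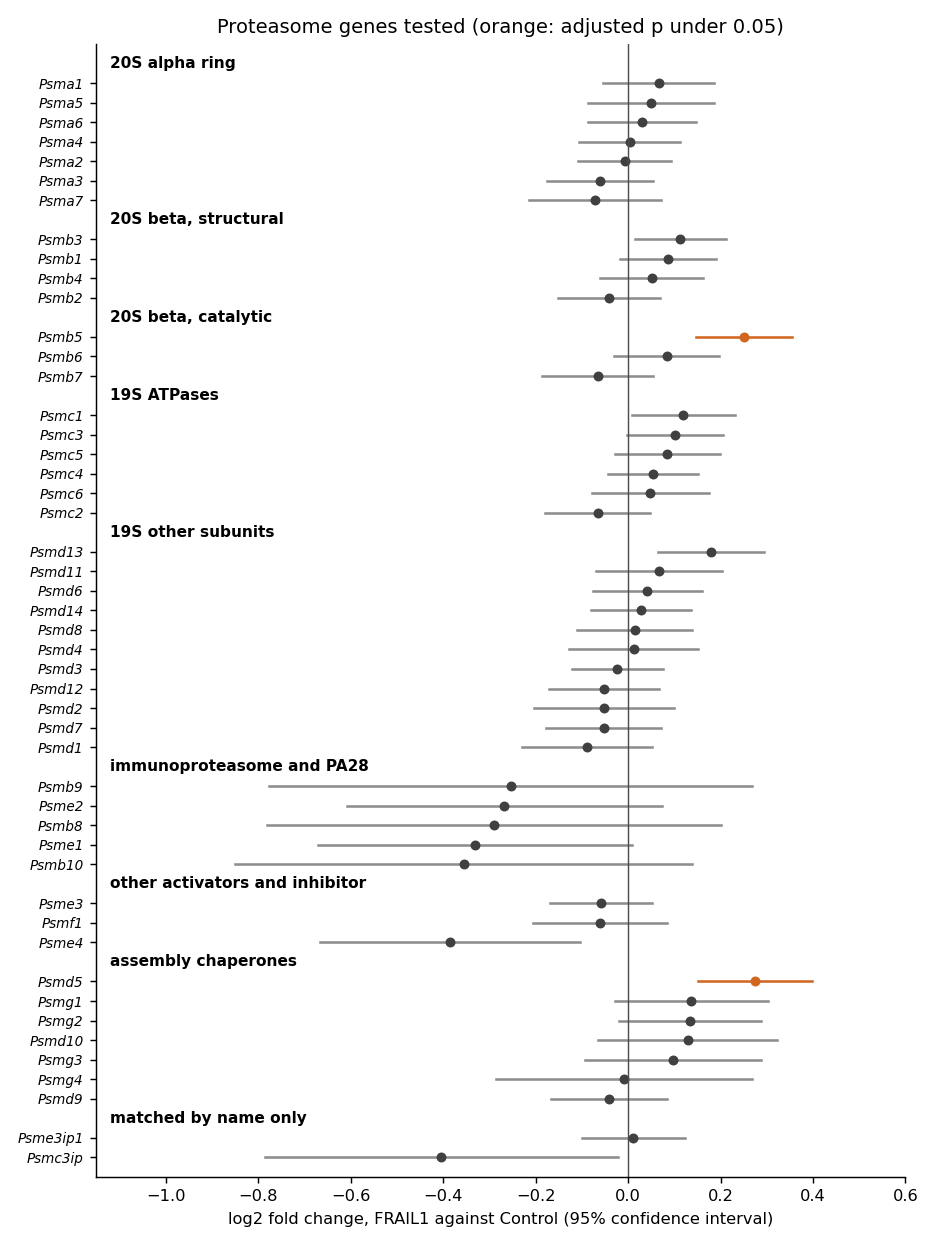
Log2 fold change of FRAIL1 against Control muscles (x axis) with its 95% confidence interval for the 48 proteasome genes tested, grouped by role (y axis). *Psmb5* and *Psmd5*, in orange, passed the threshold, while the 5 interferon-inducible genes have wide intervals that include 0.

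*Psmb5* (Gene ID 19173, chromosome 14, 54614120 to 54617995 on the minus strand of GRCm38) encodes the chymotrypsin-like subunit, the usual target of proteasome inhibitors. It measured 63.6, 61.2, 61.7, 58.7, 67.0 and 63.3 CPM in Control muscles 1 to 6 and 75.0, 71.2, 78.8, 74.4, 73.3 and 73.9 CPM in FRAIL1 muscles 1 to 6. All FRAIL1 values lay above all Control values, and the means were 62.6 ± 2.78 and 74.4 ± 2.49 CPM (SD, n = 6 each). The log2 fold change was 0.25 (SE 0.049, adjusted p = 0.0124, edgeR), a rise of 18.99%. *Psmb5* passed the threshold in all 12 fits that left out a single muscle, with an adjusted p of at most 0.0352 (edgeR), and its log2 fold change was 0.25 without FRAIL1 muscle 5. Sequence of the processed pseudogene *Gm3375* is 98% or more identical to *Psmb5* mRNA over 88.4% of its length, where a read may map to both and go uncounted.

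*Psmd5* (Gene ID 66998, chromosome 2, 34852087 to 34870965 on the minus strand) encodes S5b, a chaperone that holds part of the ATPase ring during assembly of the 19S base and is released from the finished particle. It measured 20.02, 19.1, 18.3, 18.2, 17.9 and 17.0 CPM in Control muscles 1 to 6. In FRAIL1 muscles 1 to 6 it measured 21.9, 21.3, 21.9, 21.0, 24.0 and 23.6 CPM, again above every Control muscle. The means were 18.4 ± 1.04 and 22.3 ± 1.25 CPM (SD, n = 6 each), a rise of 21.1% (log2 fold change 0.28, SE 0.058, adjusted p = 0.0169, edgeR). FRAIL1 muscles 5 and 6 were highest. Without muscle 5 the log2 fold change was 0.25 with an adjusted p of 0.0210, and the 12 fits that left out a single muscle gave at most 0.0397 (edgeR).

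**Figure D2:**
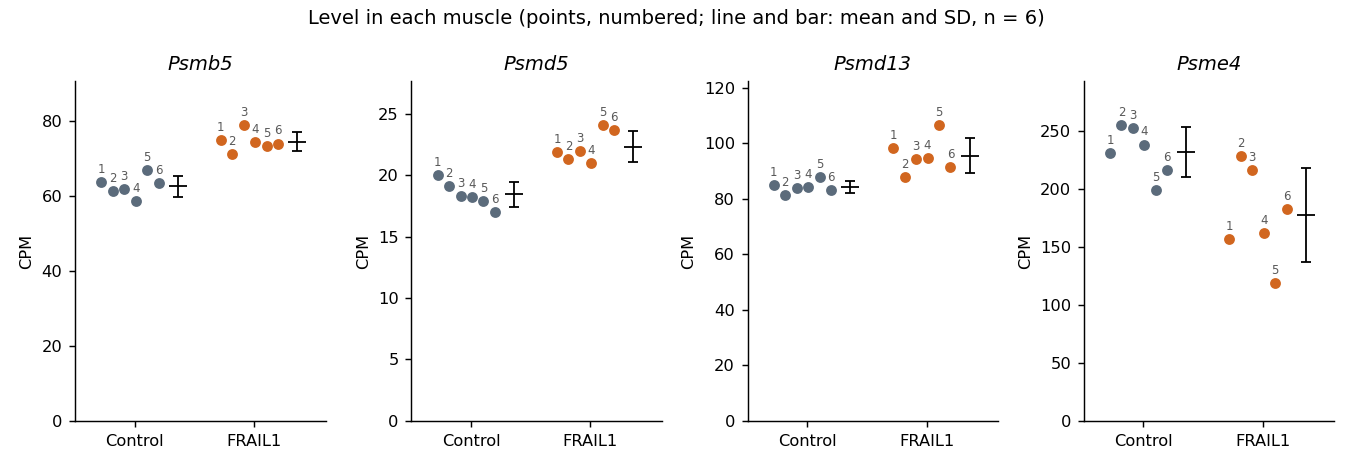
CPM (y axis, from 0) of *Psmb5*, *Psmd5*, *Psmd13* and *Psme4* in each muscle, with replicate numbers, and mean and SD of the 6 muscles of each group at the right of the points. The groups are separate for the first 3 genes and overlap for *Psme4*, for which FRAIL1 muscle 5 is lowest at 119 CPM.

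None of the other constitutive genes of the core passed the threshold. In the alpha ring, which forms the gate, none of 7 genes passed, and log2 fold changes ran from -0.07 (*Psma7*) to 0.07 (*Psma1*) with a median of 0.00. Of the 4 structural beta subunits, *Psmb3* had the largest difference, 0.11 (95% confidence interval 0.02 to 0.21, adjusted p = 0.127), and *Psmb2* the lowest, -0.04. Over these 11 genes the spread between muscles of a group was small, with coefficients of variation from 2.66 to 8.65% in Control muscles. The processed pseudogene *Gm8394* is 98% or more identical to *Psma5* mRNA over 76.5% of its length, where reads may go uncounted.

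*Psmb6*, the caspase-like subunit, measured 149.8, 144, 142, 139, 156 and 151 CPM in Control muscles and 166, 143, 156, 158, 156 and 155 CPM in FRAIL1 muscles, in the order 1 to 6. The groups overlapped, and the log2 fold change was 0.08 (95% confidence interval -0.03 to 0.20, adjusted p = 0.320). *Psmb7*, the trypsin-like subunit, measured 246, 253, 250.2, 243, 254 and 257 CPM in Control muscles and 236, 249, 264, 240.2, 217 and 230.5 CPM in FRAIL1 muscles. Its groups overlapped as well, with a log2 fold change of -0.07 (-0.19 to 0.05, adjusted p = 0.476). Exons of *Nek6* on the opposite strand cover 34.9% of the *Psmb7* exons, and the sources used here do not say whether reads were counted by strand. *Psmb5* was thus the only one of the 3 constitutive catalytic genes past the threshold in this fit, but the difference between their responses was not tested.

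Scaled by exon length, the catalytic genes were not equally abundant. In Control muscles *Psmb7* stood at 216 and *Psmb6* at 184 CPM per kb, and *Psmb5* at 69.6 CPM per kb. The geometric mean of the other 13 constitutive core genes was 69.0 ± 1.69 CPM per kb in Control and 69.9 ± 2.06 CPM per kb in FRAIL1 muscles (SD, n = 6 each). Relative to this mean, the *Psmb5* level ranged from 0.944 to 1.05 in Control and from 1.10 to 1.24 in FRAIL1 muscles, with no overlap. Because each ratio is taken within a muscle, it does not depend on the scaling between libraries.

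**Figure D3:**
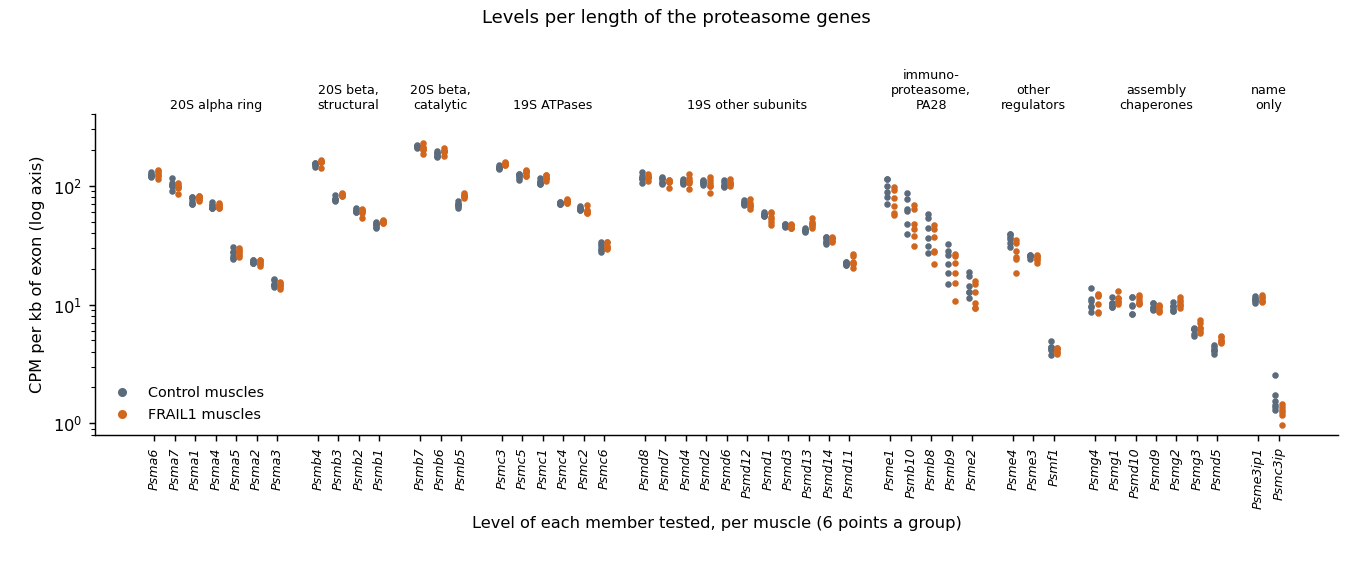
Level of each tested proteasome gene in CPM per kb of exon (y axis, log scale), ordered by level within its role (x axis), with 6 Control muscles in grey and 6 FRAIL1 muscles in orange. Core and 19S genes lie between 15.2 and 216 CPM per kb on average in Control muscles and chaperones between 4.19 and 10.6 CPM per kb, and the interferon-inducible genes are the most scattered.

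The ATPase ring of the 19S particle gave 5 positive and 1 negative log2 fold changes, from -0.07 (*Psmc2*) to 0.12 (*Psmc1*), with none past the threshold. For *Psmc1* the unadjusted p was 0.0374 and the adjusted p 0.154. *Psmc3* ranged from 225 to 246.05 CPM in Control and from 246.11 to 258 CPM in FRAIL1 muscles. These groups were separate by less than 1 CPM, and the adjusted p was 0.186 (log2 fold change 0.10). Relative to the geometric mean of the 6 ATPases, *Psmd5* stood at 0.0523 ± 0.00275 in Control and 0.0610 ± 0.00493 in FRAIL1 muscles (SD, n = 6 each, CPM per kb). Its mRNA level per kb was thus a small fraction of that of the ATPase genes.

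Of the 11 other 19S subunits, *Psmd13* had the largest difference and did not pass the threshold. *Psmd13* (Gene ID 23997, chromosome 7, 140882394 to 140898642, plus strand) encodes Rpn9, a scaffold subunit of the lid. It measured 85.0, 81.2, 83.8, 84.4, 87.9 and 83.2 CPM in Control muscles and 98.1, 88.0, 94.3, 94.6, 106 and 91.3 CPM in FRAIL1 muscles. The groups were separate, though FRAIL1 muscle 2 and Control muscle 5 lay within 0.1 CPM of each other, and the log2 fold change was 0.18 (SE 0.054, adjusted p = 0.0565, edgeR). By DESeq2 the adjusted p was 0.0157. Left-out muscles moved this call, since the adjusted p (edgeR) was 0.0353 when FRAIL1 muscle 2 was left out and 0.0497 when FRAIL1 muscle 3 was. Leaving out FRAIL1 muscle 5 gave a log2 fold change of 0.14 (adjusted p = 0.0713). Exons of *Sirt3* on the opposite strand cover 17.2% of its exons.

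The other 10 lid and base subunits had log2 fold changes between -0.09 (*Psmd1*) and 0.07 (*Psmd11*). Among them were the ubiquitin receptor gene *Psmd4* at 0.01, the deubiquitinase gene *Psmd14* at 0.03 and the large scaffold gene *Psmd2* at -0.05. For 29 of the 31 constitutive core and 19S genes the 95% confidence interval of the log2 fold change lay within 0.25 on either side of 0, and the exceptions were *Psmb5* and *Psmd13*. Summed per kb of exon, the 14 core genes came to 1242 ± 29.2 in Control and 1271 ± 40.6 CPM per kb in FRAIL1 muscles, and the 17 19S genes to 1362 ± 39.1 and 1388 ± 52.0 CPM per kb (SD, n = 6 each). Both sums overlapped between groups.

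Besides *Psmd5*, the assembly chaperones gave no calls. The base chaperones *Psmd10* (gankyrin) and *Psmd9* (p27) had log2 fold changes of 0.13 (adjusted p = 0.372) and -0.04 (adjusted p = 0.682). The chaperones of the core, *Psmg1* to *Psmg4*, which guide the alpha ring, ranged from -0.01 (*Psmg4*) to 0.14 (*Psmg1*, adjusted p = 0.263). Chaperone mRNAs averaged 4.19 to 10.6 CPM per kb in Control muscles, and the median SE of their log2 fold changes was 0.077, against 0.054 in constitutive subunits. Their summed level was 57.7 to 62.7 CPM per kb in Control and 59.5 to 68.0 CPM per kb in FRAIL1 muscles. Exons of *Gm26938* on the same strand cover 26.8% of the *Psmg3* exons.

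Before scaling, the share of a library held by the 50 proteasome genes was 0.415 to 0.449% in Control and 0.446 to 0.495% in FRAIL1 muscles. The mitochondrial genome held 9.12 to 11.4% of counts in Control and 6.58 to 9.90% in FRAIL1 muscles. TMM factors, by which library sizes are multiplied before CPM are computed, were 0.935 to 0.983 and 0.965 to 1.19. The CPM values therefore describe levels relative to the bulk of genes.

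The 5 interferon-inducible genes all had lower means in FRAIL1 muscles, and none passed the threshold in edgeR or in DESeq2 without a block. An unadjusted p under 0.05 in edgeR was found for 0 of 5, against 27.7% of all genes. Their log2 fold changes were -0.36 (*Psmb10*), -0.33 (*Psme1*), -0.29 (*Psmb8*), -0.27 (*Psme2*) and -0.25 (*Psmb9*), with adjusted p-values from 0.191 to 0.524. Coefficients of variation were 19.1 to 29.5% in Control and 22.9 to 31.7% in FRAIL1 muscles, against medians of 3.997 and 4.74% in the 31 constitutive genes. Without FRAIL1 muscle 5 the 5 values ran from -0.29 (*Psmb10*) to -0.19 (*Psmb9*).

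*Psmb10*, the replacement for *Psmb7*, measured 79.8, 51.8, 84.0, 101, 114 and 62.4 CPM in Control muscles and 62.2, 56.4, 41.2, 91.1, 49.9 and 84.3 CPM in FRAIL1 muscles. The 95% confidence interval of its log2 fold change ran from -0.85 to 0.14. *Psmb8*, the replacement for *Psmb5*, measured 71.9, 43.9, 59.7, 86.5, 94.9 and 51.1 CPM in Control muscles and 59.9, 45.1, 35.6, 76.5, 46.1 and 70.3 CPM in FRAIL1 muscles. *Psmb9*, the replacement for *Psmb6*, measured 38.5, 20.1, 29.8, 35.4, 44.0 and 24.9 CPM in Control muscles and 30.6, 24.7, 14.4, 34.8, 20.7 and 36.4 CPM in FRAIL1 muscles. For all 3 genes the groups overlapped over most of their range. Means for the PA28 genes were 105 ± 20.1 CPM and 83.9 ± 19.2 CPM (*Psme1*) and 14.2 ± 2.86 and 11.8 ± 2.77 CPM (*Psme2*) in Control and FRAIL1 muscles (SD, n = 6 each). Sequence of *Psme2b* is 98% or more identical to *Psme2* mRNA over 82.5% of its length, where a read may map to both and go uncounted. The summed PA28 level given below shares this limit.

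The 5 genes ranked the muscles alike. Within the Control group, muscle 5 was highest for 5 of 5 genes and muscle 2 lowest for 5 of 5. Within the FRAIL1 group, muscles 4 and 6 held the highest pair of values for 5 of 5 genes, and muscle 3 was lowest for 4 of 5. *Psmb9* and *Psmb8* are neighbors on chromosome 17, 10.9 kb apart with *Tap1* between them, and *Psme1* and *Psme2* lie 5.91 kb apart on chromosome 14, while *Psmb10* is on chromosome 8. *Tap1* exons on the opposite strand cover 15.7% of the *Psmb9* exons.

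**Figure D4:**
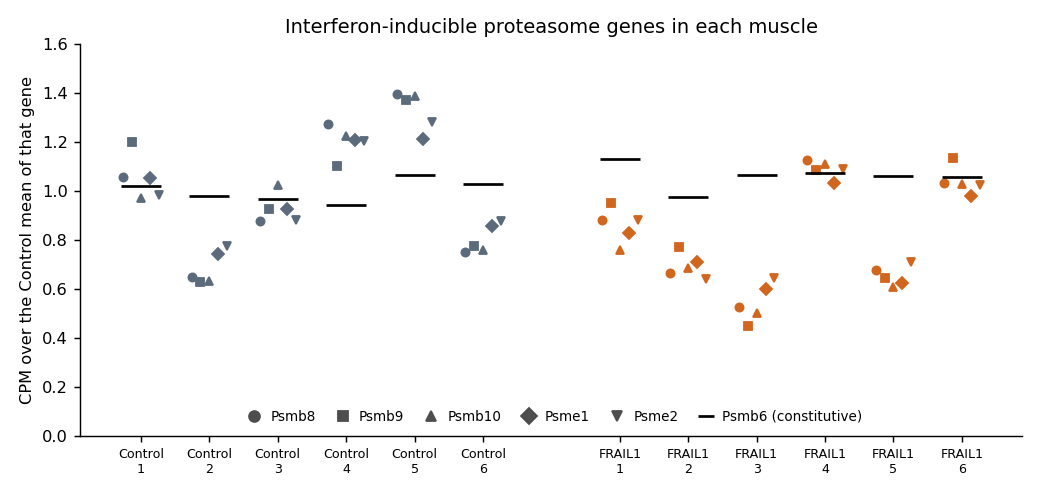
CPM of the 5 interferon-inducible proteasome genes divided by the Control mean of the same gene (y axis, from 0) in each of the 12 muscles (x axis), with the constitutive *Psmb6* as black bars. Within a muscle the 5 genes lie close together, all 5 above 1 in Control 4 and 5 and FRAIL1 4 and all 5 below 1 in Control 2 and 6 and FRAIL1 1, 2, 3 and 5, while *Psmb6* stays near 1.

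The antigen presentation list holds 12 genes such as *Tap1* and *B2m*. As a sum, it varied over the same muscles. The sum was lowest in Control muscle 2 (1957 CPM) and highest in Control muscle 5 (3606 CPM). Among FRAIL1 muscles it was lowest in muscle 3 (1823 CPM) and highest in muscle 4 (3581 CPM). *H2-K1*, *B2m* and *H2-D1* made up most of it, with Control means of 786, 564 and 525 CPM. Their log2 fold changes were 0.02, -0.15 and 0.06. None of the 12 genes passed the threshold in edgeR or DESeq2 (6.28 and 14.5% of all genes did). An unadjusted p under 0.05 in edgeR was found for 1, against 27.7% of all genes. *Pdia3*, a chaperone of peptide loading, had the highest log2 fold change, 0.17 (adjusted p = 0.275, edgeR). Single genes could differ from the sum, and *Pdia3* was highest of all muscles in FRAIL1 muscle 5 (124 CPM). The median log2 fold change was -0.15, against 0.01 over all genes.

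Each replacement subunit was compared with the constitutive subunit whose place it takes, as a ratio of CPM per kb within each muscle. The *Psmb8* to *Psmb5* ratio was 0.6245, 0.397, 0.534, 0.814, 0.783 and 0.446 in Control muscles and 0.441, 0.3502, 0.2498, 0.568, 0.347 and 0.525 in FRAIL1 muscles. All 6 FRAIL1 ratios lay below the Control median and 3 below the lowest Control ratio. The mean log2 difference was -0.54 (two-sided exact permutation test over all splits of the 12 muscles, p = 0.0563, adjusted over 3 ratios p = 0.169). For *Psmb9* to *Psmb6* the means were 0.129 ± 0.0333 and 0.102 ± 0.0316 (SD, n = 6 each; exact permutation p = 0.199, adjusted p = 0.294). For *Psmb10* to *Psmb7* they were 0.291 ± 0.0838 and 0.239 ± 0.0767 (exact permutation p = 0.294, adjusted p = 0.294). None of the 3 ratios passed, where the smallest p this design allows is 0.0022. Summed per kb, the 3 replacement genes came to 128 ± 35.9 and 103 ± 30.7 CPM per kb and the PA28 genes to 109 ± 20.9 and 87.5 ± 20.02 CPM per kb (SD, n = 6 each). Replacement subunits made up 14.9 to 26.7% of the summed catalytic mRNA level per kb in Control and 11.1 to 22.6% in FRAIL1 muscles. The *Psmb8* to *Psmb5* difference contains the rise of *Psmb5*.

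**Figure D5:**
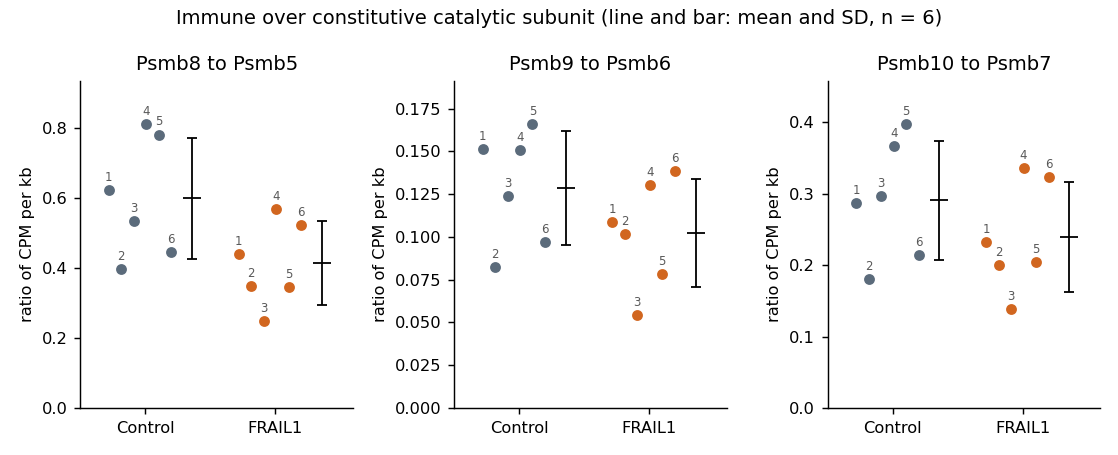
Ratio of each interferon-inducible catalytic gene to its constitutive counterpart (y axis, CPM per kb over CPM per kb, from 0) in each muscle, with replicate numbers, mean and SD (n = 6). The groups overlap in all 3 panels, and FRAIL1 muscle 3 has the lowest ratio in each.

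Among the other regulators, *Psme4* had the largest negative log2 fold change. *Psme4* (Gene ID 103554, chromosome 11, 30771775 to 30881150, plus strand) encodes PA200, a large activator that opens the core independently of ubiquitin. It measured 231, 255, 253, 238, 199.5 and 216 CPM in Control muscles and 157, 229, 216, 162, 119 and 183 CPM in FRAIL1 muscles. Every FRAIL1 value was below the Control median, but FRAIL1 muscles 2 and 3 lay within the Control range. The log2 fold change was -0.39 (SE 0.13, adjusted p = 0.0820, edgeR), and by DESeq2 the adjusted p was 0.0348. Leaving out FRAIL1 muscle 5 gave -0.30 (adjusted p = 0.102, edgeR), whereas leaving out FRAIL1 muscle 2 gave -0.47 (adjusted p = 0.0323) and leaving out muscle 3 gave -0.45 (adjusted p = 0.03998). *Psme3*, the nuclear PA28 gamma, and *Psmf1*, the inhibitor PI31, both had a log2 fold change of -0.06 (adjusted p = 0.489 and 0.596).

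The tissue-specific genes *Psma8*, an alpha subunit of the testis, and *Psmb11*, the catalytic subunit of the thymic cortex, were close to undetected. *Psma8* had 34 counts over all 12 muscles with at most 10 in a muscle, and *Psmb11* had 5 counts with at most 2. Both were too low to be tested, and 3 counts in a muscle correspond to 0.0514 to 0.0705 CPM. Of the genes matched by name, *Psmc3ip*, a factor of meiotic recombination, had the lowest log2 fold change of all 48, -0.40 (SE 0.18, adjusted p = 0.158). It measured 3.32, 2.21, 1.68, 1.99, 1.76 and 1.84 CPM in Control muscles and 1.53, 1.601, 1.66, 1.86, 1.78 and 1.25 CPM in FRAIL1 muscles, with Control muscle 1 far above the rest. Exons of *Mlx* on the opposite strand cover 29.8% of its exons. *Psme3ip1* had a log2 fold change of 0.01.

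Genes that act with the proteasome gave no calls in edgeR. The 15 partner genes tested encode, among others, shuttle factors, proteasome-bound deubiquitinases and loading factors. They also include genes of 19S subunits and of a core chaperone whose symbols do not start with *Psm*. Of the 15, 5 had an unadjusted p under 0.05 (27.7% of all genes did) and DESeq2 called 3, all lower (14.5% of all genes were called by it). *Ecpas*, whose product Ecm29 tethers core and 19S particle, had the lowest log2 fold change, -0.30 (SE 0.087, adjusted p = 0.0531), from 178 to 221 CPM in Control and from 126 to 184 CPM in FRAIL1 muscles. *Ubqln4*, a shuttle factor, had nearly the same value (-0.30, adjusted p = 0.0531) with separate groups, from 127 to 141 CPM in Control and from 80.9 to 126 CPM in FRAIL1 muscles. It was singled out after its values were seen. *Akirin2*, needed to import proteasomes into the nucleus, had the highest log2 fold change, 0.26 (adjusted p = 0.162), with 35.8 CPM in FRAIL1 muscle 5 and 20.2 to 25.8 CPM in the other FRAIL1 muscles. The median log2 fold change of the partner list was -0.05.

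The 13 genes of the NFE2L1 pathway included none past the threshold in edgeR, 2 with an unadjusted p under 0.05 and 1 called by DESeq2, *Ddi2*, against 27.7 and 14.5% of all genes. *Ddi2* encodes the protease that cuts NFE2L1 to its active form, and had the lowest log2 fold change at -0.41 (SE 0.13, adjusted p = 0.0643). *Nfe2l3* had the highest at 0.19 (SE 0.42, adjusted p = 0.801) from a mean of 0.261 CPM. *Nfe2l1* itself, named here after its values were seen, averaged 876 CPM in Control muscles with a log2 fold change of -0.11 (adjusted p = 0.406). The median of this list was -0.09.

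Of the 6 genes for ubiquitin and its activating enzymes, none passed in edgeR or DESeq2 (6.28 and 14.5% of all genes did). An unadjusted p under 0.05 in edgeR was found for 1, against 27.7% of all genes. The highest log2 fold change was that of *Rps27a* at 0.18 (adjusted p = 0.330, edgeR), with a median of -0.05 over the list.

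The muscles also differed in markers of regenerating fibers and of other cells. Summed levels of 6 satellite cell and regenerating fiber markers were 165 to 212 CPM in Control and 320 to 1530 CPM in FRAIL1 muscles (highest in muscle 5). The developmental myosin genes *Myh3* and *Myh8* made up most of this sum, with Control means of 50.9 and 98.3 CPM. *Pax7* and *Myf5* averaged 2.40 and 1.69 CPM in Control and 3.54 and 2.79 CPM in FRAIL1 muscles, and neither passed. Of the 6 markers, 3 rose past the threshold in edgeR (*Myog*, *Myh3* and *Myh8*), against 4.43% of all genes. All 6 had an unadjusted p under 0.05 (27.7% of all genes). None of the 9 macrophage markers passed the threshold in edgeR (6.28% of all genes did), and 7 had an unadjusted p under 0.05 (27.7% of all genes). No marker was at 0 in every muscle. The 9 summed to 237 to 366 CPM in Control and 297 to 755 CPM in FRAIL1 muscles, highest in FRAIL1 muscles 1, 4 and 5. *Psme4* was lowest in the same 3 FRAIL1 muscles. Control muscles were mixed in this respect. *Psme4* was lowest in Control muscle 5 (199.5 CPM), with the highest macrophage sum of its group (366 CPM). It was next lowest in Control muscle 6 (216 CPM), with the lowest sum (237 CPM). The 7 mature fiber markers summed to 124650 to 148030 and 96211 to 131830 CPM. Of these 7, 1 passed the threshold at a lower level, *Ckm* (1.85% of all genes did). An unadjusted p under 0.05 was found for 3 (27.7% of all genes). The part of these cells in the results for *Psmb5*, *Psmd5* and *Psme4* was not tested. With FRAIL1 muscle 5 left out, the log2 fold change was 0.25 for *Psmb5* and 0.25 for *Psmd5*. In the other FRAIL1 muscles, too, the regenerating fiber and fibroblast sums were above every Control muscle, so this omission is no test of that part. The 6 fibroblast markers summed to 934 to 1774 CPM in Control and 1881 to 4897 CPM in FRAIL1 muscles. *Col1a1* and *Col3a1*, with Control means of 449 and 731 CPM, made up most of this sum. Their log2 fold changes were 1.04 and 0.82, against 0.30 for *Dpt* and 0.02 for *Dcn*, the lowest of the 6. The 8 general leukocyte markers summed to 128 to 227 and 129.9 to 343 CPM. Neither list had a call in edgeR (6.28% of all genes). Unadjusted p-values under 0.05 were found for 4 of 6 fibroblast and 3 of 8 leukocyte markers (27.7% of all genes). The 6 endothelial markers summed to 359 to 414 and 281 to 363 CPM. Of these 6, 1 passed the threshold at a lower level, *Tek* (1.85% of all genes did), and 2 had an unadjusted p under 0.05 (27.7%). The 9 lymphocyte markers summed to 9.55 to 19.3 CPM in Control and 9.34 to 19.8 CPM in FRAIL1 muscles. Of the 8 tested, none passed in edgeR (6.28% of all genes did) and none had an unadjusted p under 0.05 (27.7%). The sum was lowest in Control muscle 2 and FRAIL1 muscle 3. These were the muscles lowest within their group for 5 and 4 of the 5 interferon-inducible genes. FRAIL1 muscle 5 was second highest of its group for the lymphocyte markers, at 18.2 CPM, and among the 2 lowest for 3 of the 5 interferon-inducible genes. The leukocyte and macrophage sums had their lowest Control value in muscle 6 and their lowest FRAIL1 value in muscle 3.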

How the data were processed

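The authors deposited the number of reads per gene, as whole counts without normalization, for 6 Control and 6 FRAIL1 muscles. Per their methods, paired-end poly(A) reads went through Trimmomatic, STAR 2.7.8a (mm10) and featureCounts 2.0.1, which counted uniquely mapped reads. The strand setting and annotation release are not given in the sources used here. Gene IDs were matched to RefSeq symbols of GRCm38 (25275 of 27179, with 0.280% of counts unmatched), and exon lengths are unions of GENCODE M21 transcripts tied to RefSeq mRNAs.

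The groups were compared with edgeR 4.0.16 in R 4.3.3 (filterByExpr with a minimum count of 10, TMM, robust quasi-likelihood test), with Benjamini-Hochberg adjustment over all 15502 genes tested and a threshold of 0.05. P-values rest on the spread between muscles within groups. The main fit and the permutation tests took the muscles as independent, so the pairing of legs was not used in them. CPM use TMM-scaled library sizes. Counts limit mainly genes of a few CPM or less, and floors cover counting error only. No library was a copy of another (chi-square per degree of freedom of 14.5 or more within groups). The statistical scripts were tested on simulated data.

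Genes, roles and lists were chosen with earlier results of these data known, and a named gene passed the threshold, was among the 3 largest rises or falls, is catalytic, or was the largest rise or fall of its list. *Psmc3*, *Ubqln4*, *Nfe2l1*, other members given by role and some genes named for their part in a summed level were not named by this rule. Alternatives were DESeq2 1.42.0, a replicate block, RLE and upper-quartile factors, TMM without mitochondrial genes and the 20 most counted genes, omission of the filter, a minimum of 10 counts in all 12 muscles, and each muscle left out. *Paaf1* and protein sequences were not analysed here. Some genes of the lists are not reported here by name.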

Additional observations from a re-analysis of the deposited data

Results flagged for a closer look

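Within a group of 6 muscles, 5 of 102 sets of values examined had a highest or lowest muscle that stood apart from the others by Dixon's criterion at 95%, and chance gives about 1 in 20. *Psmb3* was high in Control muscle 5, at 64.3 CPM against 57.6 to 59.3 CPM in the other Control muscles. *Psme3* was low in the same muscle, at 63.9 CPM against 68.0 to 70.3 CPM. *Psmc3ip* was high in Control muscle 1, at 3.32 CPM against 1.68 to 2.21 CPM, and without this muscle its log2 fold change was -0.24 (adjusted p = 0.349, edgeR). *Psmb4*, a structural core subunit, was low in FRAIL1 muscle 5, at 168 CPM against 187 to 195 CPM. *Psmd7*, a lid subunit, was low there as well, at 151 CPM against 169 to 177 CPM. FRAIL1 muscle 5 is the muscle with the largest scaling factor, and the part of scaling in these values was not tested.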

How the results depend on the processing

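*Psmb5* and *Psmd5* passed the threshold under all 20 alternatives, with log2 fold changes of 0.23 to 0.27 and 0.25 to 0.30. The number of proteasome genes past the threshold was 4 by DESeq2, and 2 to 4 with a muscle left out (4 when FRAIL1 muscle 2 or FRAIL1 muscle 3 was omitted), where *Psmd13* and *Psme4* joined. Of all genes, 2171 were called by DESeq2 (1243 higher and 928 lower, against 687 and 287 in edgeR) and 364 (without FRAIL1 muscle 1) to 2110 (without FRAIL1 muscle 3) with a muscle left out. Only without FRAIL1 muscle 5 (969) was the number within 1.5 times that over all muscles, 974. Partner genes past the threshold numbered 3 by DESeq2, 2 with upper-quartile factors and 0 to 3 with a muscle left out (3 when FRAIL1 muscle 2 was omitted, 2 for muscle 3 and 1 for muscle 5), and NFE2L1 genes 1 by DESeq2 and 0 to 1 with a muscle left out (1 without FRAIL1 muscle 2). The counts for ubiquitin and antigen presentation genes stayed at 0. No ratio of catalytic genes passed under any alternative, and all stayed negative (-0.65 to -0.40, -0.48 to -0.19 and -0.42 to -0.15 with a muscle left out). Signs of values near 0 changed. With a muscle left out, the log2 fold changes of *Psma2* ran from -0.024 to 0.0088, of *Psma4* from -0.014 to 0.026, of *Psmg4* from -0.062 to 0.079, of *Psme3ip1* from -0.016 to 0.030, of *Psmd4* from -0.031 to 0.053 and of *Psmd8* from -0.014 to 0.045. *Psma4* was -0.0034 with RLE factors and -0.0054 by DESeq2. Other scalings moved the median of all genes by less than 0.1. The cause of these changes was not tested. Depth limits *Psma8*, *Psmb11* and *Nfe2l3* most.

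The replicate numbers were checked as a possible pairing. The labels do not say that a number marks a mouse, and the deviations of same-numbered muscles from their group means correlated at 0.254, 0.162, 0.282, 0.263, 0.0547 and 0.185 for numbers 1 to 6. All numbers but 5 correlated best with their own number, a hint from the data and not from the labels. The design itself is paired, with both legs of a mouse used. With the replicate block edgeR called 2186 genes (1159 higher, 1027 lower), among them 4 proteasome genes (*Psmb5*, *Psmd5*, *Psmd13* and *Psme4*), 4 partner genes and 1 NFE2L1 gene. *Psme4* then had a log2 fold change of -0.41 (adjusted p = 0.0127, edgeR) and *Psmd13* 0.18 (adjusted p = 0.0339). DESeq2 with the replicate block called 2827 genes, among them 5 proteasome genes (with *Psme1*), 4 partner genes and 2 NFE2L1 genes, and gave *Psma4* -0.0051 and *Psmd4* -0.0016. The catalytic ratios did not pass a sign-flip test over these pairs (exact, adjusted p = 0.281 to 0.344). With 6 pairs, however, 1 ratio alone could not pass this test after adjustment, so it cannot decide whether a single ratio differed.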
